A study of Homo sapiens with 4 samples.

Results

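Granins and prohormone processing enzymes were examined by RNA sequencing (RNAseq) in IMR-32 cells. The set held 10 of the 60612 genes in the count table, namely 7 granins (CHGA, CHGB, SCG2, SCG3, SCG5, VGF and PCSK1N) and 3 processing enzymes (PCSK1, PCSK2 and CPE). The genes were chosen by function, with no cutoff on their values, but with results of this same comparison known, so their differences between the groups are given as a description and without a test. IMR-32 is a human neuroblastoma line, long established in culture, in which MYCN is amplified. The study asked how the transcription factor NeuroD1 acts in such cells. All 4 libraries came from cells stably carrying a short hairpin RNA under an inducible promoter, and doxycycline at 1 µg/mL for 48 h was used in both groups to switch it on. The 2 shControl libraries carried a control hairpin, although their genotype is given as WT and the series speaks of parental cells. The 2 shNeuroD1 libraries carried a hairpin against NeuroD1, and the study heads both of its knockdown columns with the name of a single hairpin. No source says whether libraries of the same group came from separate cultures, so any p-value given here measures the spread between these libraries only, which may be technical.

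Granins are acidic proteins that aggregate in the trans-Golgi network and help to load hormones, neuropeptides and amines into dense core secretory granules. Inside the granule, prohormones are cut after pairs of basic residues by the prohormone convertases PC1/3 (from PCSK1) and PC2 (from PCSK2), and carboxypeptidase E (from CPE) then trims the exposed basic residues. Sympathetic neurons and chromaffin cells, the lineage from which neuroblastoma arises, use this regulated secretory pathway, and chromogranin A (from CHGA) is a widely used marker of neuroendocrine tumours.

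The libraries held 14665210 to 16482463 counts, and 17537 genes had enough counts to be fitted. Levels are given as CPM (counts scaled to library size, with TMM factors), and differences as log2 fold changes of shNeuroD1 over shControl from edgeR. NEUROD1, the target of the hairpin, was counted 6174 and 6582 times with the control hairpin and 969 and 886 times with its own, which is 14.6% of the control level by CPM. NEUROD1 shares exon sequence with CERKL on the same strand. Mitochondrial genes took 4.37% to 4.59% of counts in shControl and 5.39% to 5.51% in shNeuroD1, and the part of this in the values below was not tested. The median log2 fold change of all genes fitted was 0.01, and it was 0.12 when libraries were scaled by their size alone.

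Of the 10 genes, 8 passed the filter on low counts and 2, SCG5 and PCSK1, did not. At an adjusted p under 0.05, 5 of the 8 were counted as higher in shNeuroD1 (CHGA, CHGB, SCG2, VGF and PCSK1N), beside 26.8% of all genes fitted. SCG3 and CPE, 2 of the 8, were counted as lower, beside 28.2% of all genes fitted. PCSK2 was in neither count. With a log2 fold change beyond 1 in size required as well, 3 were higher (SCG2, VGF and PCSK1N), beside 8.79% of all genes, and 0 were lower, beside 5.14%. The median log2 fold change of the 8 genes was 0.74. Since the genes were selected with this contrast known, nothing is read from these counts. In bulk libraries, fewer cells that express a gene and less of its RNA per cell cannot be told apart.

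**Figure D1:**
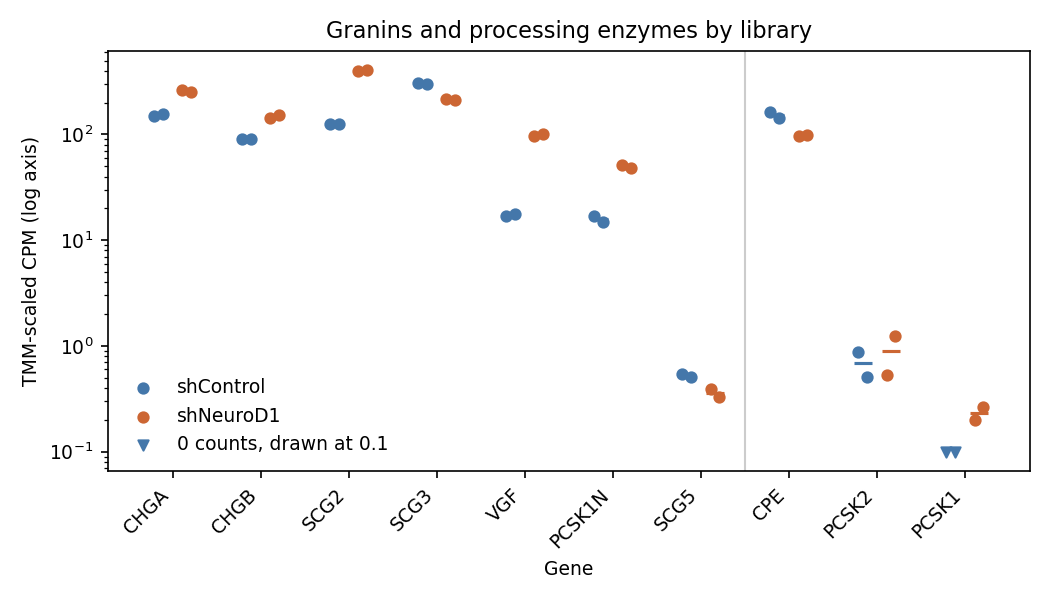
Each point is 1 library (blue, shControl, orange, shNeuroD1), the horizontal axis names the gene, and the vertical axis is TMM-scaled CPM on a log scale, with the group mean as a bar and 0 counts drawn as triangles at 0.1 CPM. The shNeuroD1 points of VGF (96.6 and 100.9 CPM) and SCG2 (402.2 and 408.4 CPM) lie above the shControl points, those of SCG3 and CPE lie below, and SCG5, PCSK2 and PCSK1 stay under 1.25 CPM.

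Promoters of the set were searched for the cAMP response element (CRE, TGACGTCA), a binding site of the CREB family that is known from granin genes, and for E-boxes, the kind of site that NeuroD1 and its partners bind. RefSeq promoters on GRCh38.p14, taken as 250 bases before to 50 bases after a transcript start, were found for 8 of the 10 genes (10 promoters). None was matched for CHGB and SCG2. The complete CRE was present in 3 of the 10 promoters, 1 each of CHGA, VGF and PCSK1, and in 649 of 35116 promoters of all genes (1.85%). It was searched because it is known from granin genes, so nothing is read from the difference between these shares. The 3 sites are shown because the CRE is the longest element searched. Each is printed 5′ to 3′ on the strand of its gene, with the CRE in capitals.
CHGA promoter, chr14:92923085-92923114, plus strand: ggcggcaccgcTGACGTCAtttccggggtc
VGF promoter, chr7:101165630-101165659, minus strand: tgaatgaacatTGACGTCAatggggcgggg
PCSK1 promoter, chr5:96433307-96433336, minus strand: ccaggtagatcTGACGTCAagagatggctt
The CRE began 54 bases before the start of CHGA, 79 before that of VGF and 77 before that of PCSK1. The bases flanking it differed between the genes. The half-site TGACG, on either strand and including the copies inside the complete CRE, was present in 8 of the 10 promoters (7 of the 8 genes, PCSK1N being the exception) and in 24.6% of all promoters. The E-box CAGATG, on either strand, was in 0 of the 10 promoters against 5161 of the 35116 promoters of all genes. CAGCTG, which reads the same on both strands, was in 2 of the 10, 1 each of SCG3 and PCSK1, and in 17.9% of all. A match is a description of these letters only, and no match says nothing of sites elsewhere.

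VGF, SCG2 and PCSK1N had the largest differences. VGF (ENSG00000128564, GRCh38 chromosome 7, 101162509 to 101165593, minus strand) encodes a nerve growth factor-inducible granin that is a precursor of several peptides. The shControl libraries held 252 and 281 VGF counts, and the shNeuroD1 libraries 1470 and 1537. Mean levels were 17.4 ± 0.423 CPM for shControl against 98.8 ± 3.05 CPM for shNeuroD1 (SD, n = 2 each). Both knockdown libraries lay far above both controls, a 5.68-fold higher mean and a log2 fold change of 2.50 (SE 0.0709). In shControl VGF stood near the middle of all genes fitted, at percentile 48.9 of mean CPM, and in shNeuroD1 at percentile 87.4.

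SCG2 (ENSG00000171951, chromosome 2, 223596940 to 223602503, minus strand) encodes secretogranin II, the precursor of secretoneurin. Its counts were 1833 and 2004 under the control hairpin and 6119 and 6219 under the NeuroD1 hairpin, or 125.3 ± 1.30 and 405.3 ± 4.37 CPM (SD, n = 2 each). The groups did not overlap, the libraries of a group lay close together, and the log2 fold change was 1.69 (SE 0.0444), or 3.24-fold. PCSK1N (ENSG00000102109, chromosome X, 48831094 to 48835633, minus strand) encodes proSAAS, a small granin-like protein that inhibits PC1/3. Control libraries held 249 and 236 of its reads and knockdown libraries 786 and 727. Its mean was 15.9 ± 1.44 CPM in the former and 49.7 ± 2.77 CPM in the latter (SD, n = 2 each). The groups did not overlap, and the log2 fold change was 1.65 (SE 0.0871). SCG2 and PCSK1N thus differed by about the same ratio, from very different control levels.

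The chromogranins differed less, and by nearly the same ratio as each other. CHGA (ENSG00000100604, chromosome 14, 92923080 to 92935293, plus strand) was counted 2217 and 2489 times in shControl, against 4035 and 3853 times in shNeuroD1. In CPM these were 150.4 and 156.7 against 265.2 and 253.0, with a log2 fold change of 0.75 (SE 0.0457). CHGB (ENSG00000089199, chromosome 20, 5911430 to 5925361, plus strand), the gene of chromogranin B, was counted 1324 and 1443 times in shControl, against 2182 and 2342 times in shNeuroD1. In CPM these were 89.8 and 90.9 against 143.4 and 153.8, with a log2 fold change of 0.72 (SE 0.0513). For both genes, the lower knockdown library was above the higher control library. Per kb of the longest annotated transcript, the ratio of CHGA to CHGB was 2.10 ± 0.0441 in shControl and 2.16 ± 0.178 in shNeuroD1 (SD, n = 2 each), a difference smaller than the spread between libraries.

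SCG3 was the abundant granin that was lower. SCG3 (ENSG00000104112, chromosome 15, 51681353 to 51721031, plus strand) encodes secretogranin III, which binds chromogranin A and cholesterol-rich granule membrane. Counts were 4497 and 4786 with the control hairpin and 3287 and 3245 after knockdown, or 303.2 ± 2.62 and 214.6 ± 2.10 CPM (SD, n = 2 each). The groups did not overlap, the knockdown mean was 70.8% of the control mean, and the log2 fold change was -0.50 (SE 0.0427). The ratio of SCG3 to CHGA, per kb, was 1.26 and 1.20 in control libraries and 0.507 and 0.524 in knockdown libraries. SCG3 transcripts were thus more abundant than those of CHGA in both control libraries and less abundant in both knockdown libraries.

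SCG5 (ENSG00000166922, chromosome 15, 32641676 to 32697098, plus strand) encodes 7B2, the chaperone that PC2 needs to mature. It had 8 counts in each shControl library and 6 and 5 in shNeuroD1, too few to be fitted. The exact Poisson 95% intervals, which cover counting error only, were 3.45 to 15.8 for 8 counts and 1.62 to 11.7 for 5. These overlap, but overlap is not a test of the groups, and no difference is read from these counts. An antisense gene, AC123768.1, shares exon sequence with SCG5, and reads of the pair cannot be told apart where counting ignores strand.

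Among the enzymes, CPE was the only abundant one. CPE (ENSG00000109472, chromosome 4, 165361194 to 165498320, plus strand) gave 2406 and 2279 counts with the control hairpin against 1461 and 1506 with the NeuroD1 hairpin. Mean levels were 153.4 ± 13.9 and 97.5 ± 2.02 CPM (SD, n = 2 each), with no overlap. The knockdown mean was 63.5% of the control mean, with a log2 fold change of -0.65 (SE 0.0549). The control libraries stood at 163.2 and 143.5 CPM, and the log2 fold change was -0.57 without shControl replicate 1 and -0.75 without shControl replicate 2.

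The convertase transcripts were near the limit of detection. PCSK1 (ENSG00000175426, chromosome 5, 96390415 to 96434143, minus strand) had 0 counts in both shControl libraries, against 3 and 4 counts after knockdown. A count of 0 allows up to 3 counts (a one-sided 95% limit), or 0.204 and 0.189 CPM in the 2 control libraries, and the knockdown libraries stood at 0.197 and 0.263 CPM, so no fold is given. PCSK2 (ENSG00000125851, chromosome 20, 17226107 to 17484578, plus strand) was counted 13 and 8 times in shControl, against 8 and 19 times in shNeuroD1. The groups overlapped, and the log2 fold change of 0.36 (SE 0.502) was smaller than its error. PCSK1N, the inhibitor, was therefore measured at 14.9 to 51.7 CPM in libraries where its target PCSK1 did not exceed 0.263 CPM.

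**Figure D2:**
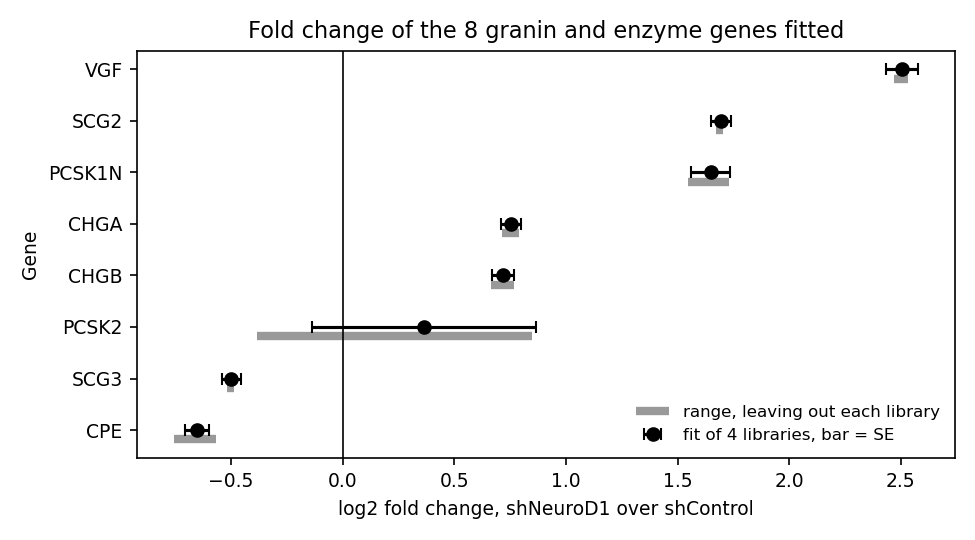
Black points are log2 fold changes of shNeuroD1 over shControl (horizontal axis) for the 8 genes with enough counts (vertical axis), black bars are 1 SE, and grey bars span the values obtained by leaving out each library in turn. VGF (2.50), SCG2 (1.69) and PCSK1N (1.65) stand apart on the right, CHGA and CHGB lie together near 0.7, SCG3 and CPE lie on the left of 0, and the grey bar of PCSK2 crosses 0.

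The make-up of the granin transcripts was then compared, with each gene's CPM divided by the length in kb of its longest annotated transcript. The sum over the 7 granins was 271.6 and 273.0 CPM per kb in shControl and 493.2 and 490.7 in shNeuroD1, a 1.81-fold difference in means. SCG3 made up 33.6% ± 0.407 of that sum in shControl and 13.2% ± 0.082 in shNeuroD1 (SD, n = 2 each). SCG2 made up 17.9% ± 0.123 and 32.0% ± 0.458 in the same order. VGF went from 2.48% ± 0.0517 to 7.80% ± 0.268, and PCSK1N from 5.55% ± 0.522 to 9.62% ± 0.503. CHGA held 27.3% ± 0.702 in shControl and 25.5% ± 0.760 in shNeuroD1, and CHGB held 13.0% ± 0.0611 and 11.8% ± 0.626. The share of SCG5 was 0.155% in shControl and 0.0593% in shNeuroD1, but it rests on 8 counts or fewer per library and is limited by counting error. An exact permutation test of 2 libraries against 2 cannot go below a two-sided p of 0.333, and none was made.

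**Figure D3:**
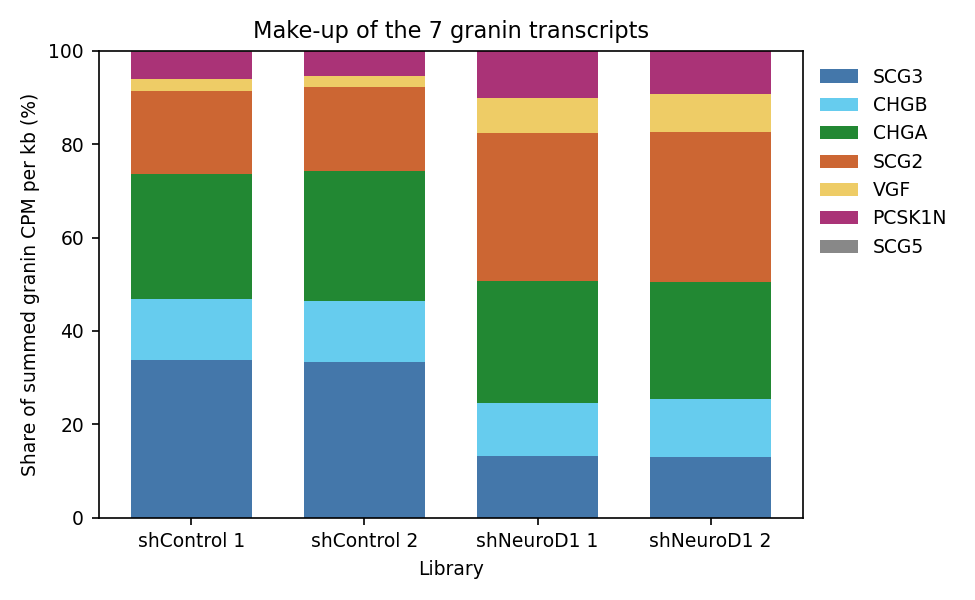
Each bar is 1 library, and the colours divide it into the percentage that each granin contributed to the summed CPM per kb of the 7 granins (vertical axis, 0 to 100%). SCG3 (dark blue) narrowed from 33.6% to 13.2% of the bar on average and SCG2 (orange) widened from 17.9% to 32.0%, while the 2 bars within a group are alike, and SCG5 is too small to be seen.

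By CPM per kb, the order in both shControl libraries was SCG3, CHGA, CPE, SCG2, CHGB, PCSK1N and VGF, followed by SCG5, PCSK2 and PCSK1. In both shNeuroD1 libraries it was SCG2, CHGA, SCG3, CHGB, PCSK1N, CPE and VGF, with the same last 3 genes. SCG2 moved from the fourth place to the first, and CPE from the third to the sixth. The ranges of neighbouring genes among the first 7 did not overlap in either group, although CPE (39.7 and 40.9 CPM per kb) and VGF (37.5 and 39.2) lay close together in shNeuroD1. SCG5 and PCSK2 had too few counts to be ordered beyond counting error. The ratio of CPE to SCG2, an enzyme set against an abundant granin, was 1.40 and 1.21 with the control hairpin and 0.254 and 0.258 after knockdown. The ratio of SCG3 to CPE, the pair of genes that was lower, was 1.45 ± 0.119 in shControl and 1.61 ± 0.0491 in shNeuroD1 (SD, n = 2 each).

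Deposited FPKM values of assembled transcripts, from the same 4 libraries as the gene counts, gave a readout of starts and exons. They listed 36 events for the 10 genes, of which 14 were transcript starts and 9 of those were seen in all 4 libraries. SCG2 and PCSK1 had no listed event in any library, although SCG2 had 1833 or more counts in each. The starts listed for VGF, in 1 library of each group, lay outside the annotated gene, so they give no level for VGF. For the 5 abundant genes with a start in every library, the summed FPKM of the starts was 45.5 and 41.4 in shControl against 81.1 and 85.9 in shNeuroD1 for CHGA. In the same order it was 18.2 and 14.2 against 36.4 and 28.5 for CHGB. It was 12.1 and 10.5 against 39.8 and 37.5 for PCSK1N, 74.5 and 73.2 against 57.0 and 55.4 for SCG3, and 48.1 and 41.4 against 30.1 and 30.5 for CPE. In each of these the groups lay apart in the same order as by counts. The share of all genes whose groups lie apart was not computed, so nothing is read from this.

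CHGB was the gene whose events differed in form. A 96-base exon of CHGB (GRCh38 chromosome 20, 5914618 to 5914713, between the first exon and the rest of the gene, and annotated in GENCODE 29 as an untranslated exon) was included in 9.90% and 20.2% of the FPKM of transcripts from the first start in shControl, against 0.503% and 0.530% in shNeuroD1. Among transcripts of that start, inclusion was below 1% in both knockdown libraries, and the 2 control libraries differed widely from each other. A start listed at 5913652 to 5914713, which ends at the last base of that exon, held 14.9% and 0% of the start FPKM of CHGB in shControl and 32.8% and 27.7% in shNeuroD1. Transcripts of this second start also hold the 96 bases and are outside the percentages of inclusion above. Over all start FPKM of CHGB, transcripts holding the bases made up 23.3% and 20.2% in shControl against 33.1% and 28.1% in shNeuroD1, so the direction depends on whether the second start is counted. Since both events cover the same bases, they are not separate measurements, and the reads behind an FPKM are unknown here. The first start of the gene, at 5911510, held the remainder apart from 0.349% or less. Exons of CHGA and SCG3 listed as alternative were included at 98.4% or more in every library.

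**Figure D4:**
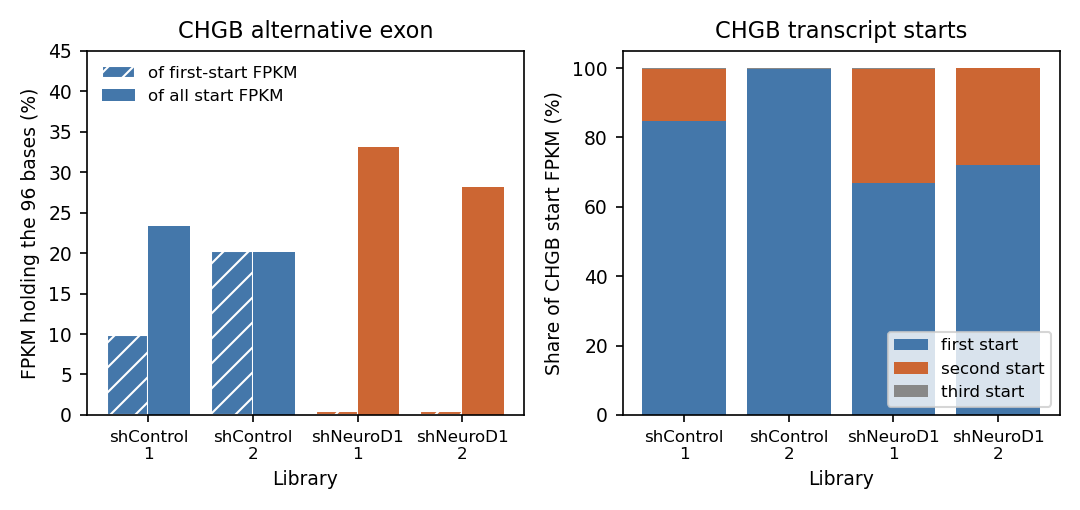
The left panel gives, for each library (blue, shControl, orange, shNeuroD1), the percentage of FPKM from CHGB transcripts that hold the 96 bases, as exon inclusion among transcripts of the first start (hatched) and over all starts (solid), and the right panel the percentage of CHGB start FPKM at each of 3 listed starts. The hatched bars are lower in shNeuroD1 (0.503% and 0.530% against 9.90% and 20.2%) and the solid bars higher (33.1% and 28.1% against 23.3% and 20.2%), and the second start was absent from shControl replicate 2 and at 27.7% or more in both shNeuroD1 libraries.

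The other genes of the pathway were then counted, from 4 lists written by function, with adjusted p-values from edgeR's quasi-likelihood test over all genes. Each count stands beside 26.8% of all genes fitted that were called higher and 28.2% that were called lower. The first holds 18 other processing enzymes. Of 16 tested, 9 rose, 5 fell and 2 (PAM and QPCTL, named after their values were seen) did not pass, with a median log2 fold change of 0.24. PCSK5, a convertase of growth factor precursors, fell from 4.09 ± 0.169 to 0.493 ± 0.140 CPM (SD, n = 2 each, log2 fold change -3.03, adjusted p = 7.8e-09). CPZ, a carboxypeptidase of the extracellular matrix, was counted 0 and 1 times in shControl, against 14 and 24 times in shNeuroD1, a ratio of 38.2 with an exact 95% counting interval of 6.46 to 1549. Of the most abundant, CPD, a carboxypeptidase of the trans-Golgi network that resembles CPE in activity, fell by 0.55 on the log2 scale (SE 0.0592, adjusted p = 1.5e-09). CPXM1, a carboxypeptidase-like protein that lacks enzyme activity, rose by 0.21 (adjusted p = 0.0025). The membrane carboxypeptidase gene named CPM was counted 33 times in each shControl library, against 17 and 9 times in shNeuroD1 (-1.33, adjusted p = 0.0037). CPM lost its call without shControl replicate 1 (0.109), shControl replicate 2 (0.0904) or shNeuroD1 replicate 2 (0.0836), and CPXM1 without shControl replicate 2 (0.139) or shNeuroD1 replicate 1 (0.0581). Both lost it in DESeq2 (0.0897 for CPM and 0.0822 for CPXM1), and CPXM1 also with no filter on low counts (0.0558). DESeq2 counted 5 rises and 3 falls, beside 14.3% of all genes called higher and 18.5% called lower in that fit.

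The second list holds 41 genes of granule formation, transport and release. Of 38 tested, 17 rose, 10 fell and 11 did not pass, with a median log2 fold change of 0.09. Among all genes fitted, 26.8% were called higher and 28.2% lower. Scaled by library size alone, 22 rose and 8 fell, beside 34.9% and 20.8% of all genes. The largest fall was in RAB26, a Rab GTPase of secretory granules, from 16.8 ± 0.732 to 2.27 ± 0.791 CPM (SD, n = 2 each, -2.89, adjusted p = 5.7e-15). ICA1, a protein of granule budding that is also an islet autoantigen, rose from 16.2 ± 0.393 to 113.4 ± 2.40 CPM (2.80, adjusted p = 2.5e-25). RPH3A, the Rab3 effector rabphilin, rose from 2.89 ± 0.633 to 14.9 ± 0.640 CPM (2.36, adjusted p = 2.1e-13). The most abundant genes of the list both fell. SYT1, the calcium sensor of fast release, fell by 0.57 on the log2 scale (SE 0.0422, adjusted p = 3.2e-13), and CPLX2, a complexin that binds the SNARE complex, fell by 0.65 (SE 0.0433, adjusted p = 2.5e-14).

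The third list holds 40 genes of peptide precursors, the cargo that the convertases and CPE process. Of these, 18 had 0 counts in every library (POMC, SST and CRH among them), and 13 were tested. 6 rose, 2 fell and 5 did not pass, while the median log2 fold change was -0.13, so the median and the counts differ in sign. Among all genes fitted, 26.8% were called higher and 28.2% lower. GAL, the galanin precursor and the most abundant, rose from 92.0 ± 7.75 to 242.2 ± 6.99 CPM (SD, n = 2 each, log2 fold change 1.40, adjusted p = 6.9e-21). VIP rose from 18 and 17 counts to 234 and 237 (3.75, adjusted p = 1e-16), and TAC3, the neurokinin B precursor, from 16 and 18 to 88 and 85 (2.35, adjusted p = 4.8e-09). PENK, the enkephalin precursor (20 and 10 counts against 35 and 35, 1.22, adjusted p = 0.0061), and CORT (3 and 6 against 13 and 16, 1.67, adjusted p = 0.012) rose as well. PENK lost its call without shControl replicate 2 (adjusted p = 0.109), and CORT without any 1 of the 4 libraries (0.0536 to 0.145). Both lost it in DESeq2 (0.126 for PENK and 0.195 for CORT). ADCYAP1, the PACAP precursor, fell by 0.69 on the log2 scale (SE 0.0669, adjusted p = 1.8e-10). Summed over the list, precursors stood at 193.6 and 173.9 CPM in shControl and 340.0 and 326.2 CPM in shNeuroD1. Without GAL, the sums were 96.1 and 87.3 against 92.9 and 89.0 CPM, which overlap. In DESeq2, 4 precursors rose and 1 fell, beside 14.3% of all genes called higher and 18.5% called lower in that fit.

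The fourth list holds 13 transcription regulators known to act on granin genes or on neuroendocrine genes. All 13 were tested, of which 4 rose, 8 fell and 1 did not pass, with a median log2 fold change of -0.29. Among all genes fitted, 26.8% were called higher and 28.2% lower. Scaled by library size alone, 5 rose and 6 fell, beside 34.9% and 20.8% of all genes. INSM1, a zinc finger factor of neuroendocrine cells, fell from 184.7 ± 12.0 to 52.8 ± 2.57 CPM (SD, n = 2 each, -1.81, adjusted p = 1e-22). EGR1, an immediate early factor, fell from 48.3 ± 1.02 to 9.20 ± 0.192 CPM (-2.39, adjusted p = 3.8e-20). CREB1, which binds the CRE, fell by 0.18 on the log2 scale (SE 0.0512, adjusted p = 0.0034). The call of CREB1 was lost under library size alone (adjusted p = 0.268) and without shNeuroD1 replicate 1 (0.0726). REST, the repressor of neuronal genes that include granins, was named after its values were seen, and it fell by 0.51 (SE 0.0763, adjusted p = 8.6e-07).

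**Figure D5:**
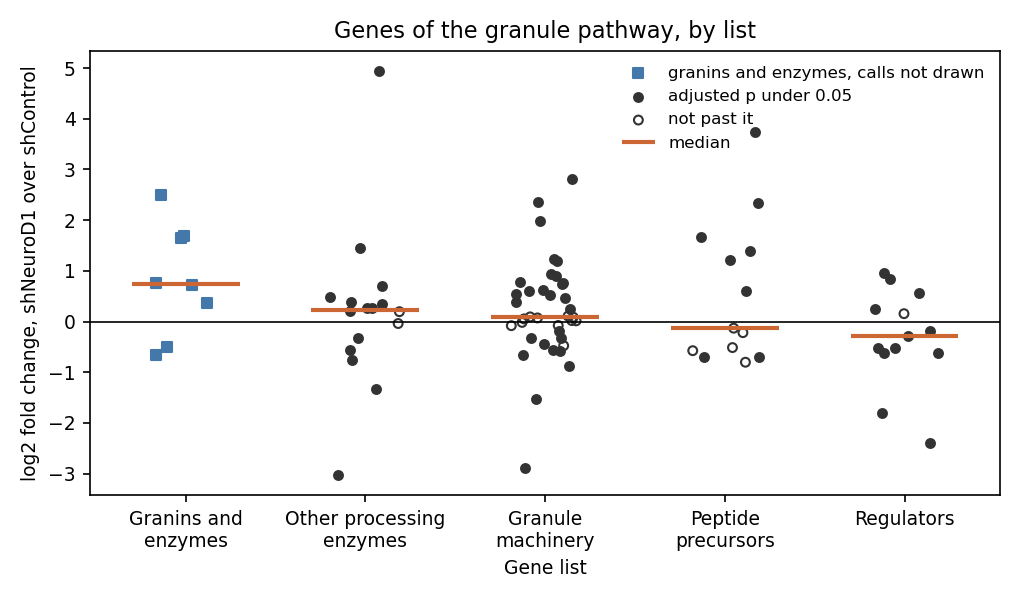
Each symbol is a gene, placed by its list (horizontal axis) and its log2 fold change of shNeuroD1 over shControl (vertical axis). Squares are granins and their enzymes, drawn without their calls, filled circles passed an adjusted p of 0.05, open circles did not, and orange lines are medians. The medians were 0.74, 0.24, 0.09, -0.13 and -0.29 from left to right, and every list held genes on both sides of 0.

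Markers of the cell type and of other cells were set beside these values. Their counts of rises and falls stand beside 26.8% of all genes fitted called higher and 28.2% called lower. The neuroblastoma markers PHOX2A, HAND2, GATA3, ISL1 and MYCN were at 32.6 CPM or more in every library, whereas TH and DBH, enzymes of catecholamine synthesis, had 10 to 88 and 11 to 24 counts. Of the 8 markers, 2 rose and 4 fell, and their sum was 3913 to 4015 CPM in shControl and 3549 to 3566 in shNeuroD1. Of the 7 mesenchymal markers, 5 were tested and all 5 fell, with a sum of 240.3 to 243.5 CPM in shControl and 156.2 to 162.8 in shNeuroD1, and PRRX1 at 0 in every library. The 5 Schwann cell markers summed to 5.42 to 5.43 CPM in shControl and 8.74 to 10.1 in shNeuroD1, where 2 of 4 tested rose. The 5 leukocyte markers summed to at most 0.657 CPM with CD3E at 0, and none was tested. The 4 epithelial markers summed to 0.0678 to 0.630 CPM in shControl and 1.44 to 1.84 in shNeuroD1, with CDH1 at 0. EPCAM, the 1 of them tested, rose from 0 and 1 counts to 28 and 21 (adjusted p = 7e-07). The part of these markers in the granin values was not tested.

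The genes with the most similar profiles were found by the distance between log2 CPM (2 CPM added) centred over the 4 libraries, among the 10543 genes that averaged 10 CPM or more. For VGF, the gene of the largest positive difference, they were MEG3, a long noncoding RNA (distance 0.0367), NSG2, a neuronal vesicle protein (0.0617), and MSX2, a homeobox factor (0.0733). MEG3 stood at 105.4 and 111.0 CPM in shControl and 572.0 and 593.1 in shNeuroD1. For CPE, the gene of the largest negative difference, they were UBE2E3, a ubiquitin-conjugating enzyme (0.0141), TOE1, an RNA deadenylase (0.0208), and KIF2C, a mitotic kinesin (0.0286). UBE2E3 stood at 74.5 and 64.5 CPM in shControl and 43.3 and 44.5 in shNeuroD1. With 4 libraries in 2 groups, such likeness mainly restates a like fold change.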

How the data were processed

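RNAseq was analysed for 4 IMR-32 libraries, 2 per group, grouped and numbered by their titles. The authors deposited raw read counts per Ensembl gene and, per library, FPKM values (fragment counts scaled by library size and by length) of splicing events and of the starts and ends of assembled transcripts, listed where above 0. The submitters' processing notes name cutadapt 1.9.1, HISAT2 2.0.1, HTSeq 0.6.1, DESeq2 and the build hg38. The tool behind the FPKM events and the use of strand in counting are not given in the sources used here, so overlapping genes are reported as uncertain. 0% of counts lay in rows that name no gene. Symbols were found for 60401 of 60612 gene IDs, and positions and lengths are those of GENCODE 29.

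Counts were filtered by filterByExpr (minimum count 10), which left 17537 genes, scaled by TMM and compared by the quasi-likelihood F test in edgeR 4.0.16 (R 4.3.3, two-sided, Benjamini-Hochberg over all genes tested). SE is the size of the log2 fold change divided by the square root of F. DESeq2 1.42.0 and limma 3.58.1 served as alternatives. The edgeR and DESeq2 fits were tested on simulated counts, which do not cover the limma fits of event FPKM. The libraries of a group differed beyond sampling noise (chi-square per degree of freedom 2.53 in shControl and 1.56 in shNeuroD1). Library totals of 14665210 to 16482463 set the counting error, and intervals cover counting error only.

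The genes examined, the gene lists and the tests were chosen with earlier results of these data known. Named are the 10 genes and NEUROD1. In each list, genes whose log2 fold change passed 1 in size at an adjusted p under 0.05 were named, or the 3 largest changes where more than 6 qualified, together with the 2 genes of highest mean CPM. The 3 nearest profiles of the genes with the largest positive and negative differences were named too, and others are marked as named after their values were seen. Some genes of the lists are counted but not reported by name here. Inclusion of an exon is its inclusion FPKM as a percentage of inclusion plus skipping FPKM. Gene FPKM is the sum over transcript starts, with unlisted starts as 0.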

Additional observations from a re-analysis of the deposited data

How the results depend on the processing

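In the 10 other fits of the counts (scaling by DESeq2 size factors or by library size alone, every counted gene kept, genes averaging 1 CPM or more, DESeq2 itself, the replicate block, and each library left out in turn), the same 7 of the granin and enzyme genes were called in the same directions, 5 higher and 2 lower, while 11.6% to 34.9% of all genes were called higher and 13.4% to 29.5% lower. DESeq2 called 2757 of all genes higher and 3580 lower, against 4698 and 4939. As these genes were chosen with the contrast known, nothing is read from the repeat of their calls. The labels do not say what libraries of the same replicate number share. The correlation of their deviations was 0.0192, and this 1 value cannot show that they share nothing. The replicate block left the counts of calls as they were for these genes (5 and 2) and for the 4 lists. Over all genes it called 4748 higher and 5000 lower. The log2 fold change of PCSK2, which no fit called, ran from -0.38 (shNeuroD1 replicate 2 left out) to 0.85 (shNeuroD1 replicate 1 left out), and was -0.00213 without shControl replicate 2. Limma on log2(FPKM + 1), over 10084 genes, and on log2(FPKM + 0.1) called 2 of the granin and enzyme genes higher, CHGA and PCSK1N, and 0 lower, beside 2.44% and 2.76% of all genes (2.04% and 2.55% with 0.1 added). SCG2, SCG5, PCSK1 and PCSK2 had no value there, and that of VGF rests on starts outside the annotated gene and is no level of VGF. The higher and lower counts in these 2 FPKM fits were 0 and 0 for other processing enzymes, 4 (3 with 0.1 added) and 1 for granule machinery, 1 and 0 for peptide precursors and 0 and 1 for regulators, and the cause was not tested. PCSK5, CPZ, RAB26, GAL, TAC3 and INSM1 are among the list genes with no value in these 2 fits. A list gene outside these counts may thus be absent from the fit and not only uncalled. CREB1 changed sign in the 2 FPKM fits (0.34 and 0.38). NEUROD1 has no value from these 2 FPKM fits, and it shares exon sequence with CERKL. DESeq2 called 5 other processing enzymes higher and 3 lower, and 1 peptide precursor lower, beside 14.3% of all genes higher and 18.5% lower. Leaving out each library gave 5 to 8 higher and 3 to 5 lower other processing enzymes, 3 to 5 higher and 1 to 2 lower peptide precursors, with the lone library assumed to vary like the other group. Without division by length, the share of SCG3 was 42.9% in shControl and 18.2% in shNeuroD1 and that of SCG2 34.5% in shNeuroD1. Of the 36 events, 19 had a mean of at least 1 FPKM. Of 389 values for 35 named genes under the alternatives, 343 kept their direction and their side of the threshold, 42 kept the direction only and 4 reversed. Most of these values are refits of the same counts, and with all 4 libraries 201 of 207 such values kept both. In the FPKM fits, only 15 of 42 values for 21 genes kept both, 25 kept the direction only and 2 reversed. The make-up of the granins by event FPKM was not run, since SCG2 has no listed event. With 19 counts or fewer in any library, PCSK1, PCSK2 and SCG5 are limited by depth.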
